A study of Homo sapiens with 40 samples.

Results

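The 37 imprinted genes described here lie in 16 clusters outside the INS-IGF2 locus, and were read in EndoC-βH3 cells, a human beta-cell line derived from fetal pancreas. Members were taken by name from GENCODE 44, and all 37 were found once among its 62700 genes. Every CTCF or H3K27ac peak within 2 kb of an annotated start site of a member, or inside its gene body, was assigned to that member. This gave 92 of 51457 CTCF peaks and 158 of 51489 H3K27ac peaks, of which 6 and 11 were shared by 2 members. The 37 genes comprise 30 protein-coding genes and 7 long noncoding RNAs (lncRNAs), namely MEG3, MEG8, HYMAI, SNHG14, GNAS-AS1, KCNQ1OT1 and AIRN.

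The study compared non-senescent EndoC-βH3 cells, which carry excisable hTERT and SV40 large T transgenes and an inducible CreER, with cells of the same line made senescent by 3 weeks of 4-hydroxytamoxifen, which activates the CreER and removes the transgenes. All libraries thus share 1 genetic background, and loss of the transgenes cannot be told apart from senescence. H3K27ac and CTCF were each profiled in 3 libraries per state, and H3K4me1 and the retinoblastoma protein Rb in 2 per state, all with input. The values used here are the authors' mean normalized read count of each peak over all libraries of a mark, which carry no spread and no state, and the authors' lists of active enhancers in each state. Differences between states therefore rest on 1 enhancer list per state, without replicates.

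In imprinting, 1 parental copy of a gene is silenced by marks laid down in the germ line, most often DNA methylation of a CpG-rich imprinting control region. The methylated copy is kept so in the embryo by the zinc-finger protein ZFP57, whereas the unmethylated copy can be bound by CTCF, which separates domains of chromatin, or can act as a promoter, often of a lncRNA that silences its neighbours. H3K27ac marks active promoters and enhancers. Several of these genes touch beta-cell biology: PLAGL1 and HYMAI form the locus of transient neonatal diabetes, GRB10 encodes an adaptor that restrains insulin receptor signalling, GNAS encodes the stimulatory G protein subunit, and DLK1 and MEG3 share a cluster on chromosome 14. The reads do not distinguish the parental copies.

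All 11 beta-cell markers examined, among them INS, PDX1, NKX6-1 and NKX2-2, had an H3K27ac peak at a start site, with authors' means from 2453 at NKX6-1 to 16247 at PAX6. Of 17 markers of other cell types, 7 had one, including CD68 with 3544, CPA1 with 1498 and KRT19 with 913, while GCG, PPY, SOX9, VIM and COL1A1 had none. The peak means summed to 6136424 normalized reads for CTCF and 19239499 for H3K27ac, and the median peak held 58.6 and 119 reads. H3K27ac values can thus be compared with each other, and likewise CTCF values, but not 1 mark with the other.

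Matches to the core of the CTCF binding sequence in the peaks at these loci are shown first. The core searched, CCANNAGNNGGC, has 8 fixed letters and was read on both strands of hg38. An exact core lay in 28 of the 92 members' peaks (30.4%, 95% Wilson interval 22.0 to 40.5%), beside 23.6% of all CTCF peaks and 3.40% of all peaks moved by 10 kb. In each line below, capitals mark the core and the lower-case letters its flanks, 5′ to 3′ on the strand that carries the core.
KCNQ1 intron, chr11:2531549-2531578, minus strand: agcaaatagCCACCAGGTGGCgcacagacc
L3MBTL1 start site, chr20:43538254-43538283, plus strand: aagttctgaCCACCAGAGGGCacttgccta
MEST start site, chr7:130486606-130486635, plus strand: gccgccggtCCAGAAGAGGGCcacgtgggc
PLAGL1 intron, chr6:144013588-144013617, minus strand: ccactagagCCACTAGATGGCgcctgcggc
UBE3A start site, chr15:25438314-25438343, minus strand: gggctggtgCCAGAAGTAGGCccctggtgg
These cores sat in peaks with authors' means of 767, 426, 262, 227 and 216, in the order of the lines. All but the UBE3A peak were the highest CTCF peaks of their clusters. Peaks with an exact core at KCNK9, TRAPPC9 and a GNAS start site, with means of 355, 313 and 271, are not printed. They lay -701, 109, 372, 147 and -367 bases from the peak centres in genome coordinates. A match of letters, above all far from the centre, does not show that CTCF binds there. The KCNQ1 peak, in an intron of this voltage-gated potassium channel gene, was the highest of all 92 and stood at percentile 99.6 of its table. The L3MBTL1 peak covered a start site inside this methyl-lysine reader gene, not its outermost start, and stood at percentile 96.5.

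In 8 of the 12 clusters with a CTCF peak, the highest one held no exact core. For 5 of them the match nearest to the peak centre with 1 of the fixed letters different is given below, with that letter in lower case inside the capitals.
MEG3 start site, chr14:100827889-100827918, plus strand: ctgcttttcCCtGTAGCAGGCggagcggcg
PEG10 and SGCE start sites, chr7:94655934-94655963, minus strand: gtcccggggCCAACAGGCcGCcgcctcccc
MAGEL2 exon, chr15:23642582-23642611, plus strand: tctaatctgCCgCTAGGTGGCaggagaatt
GNAS intron, chr20:58870448-58870477, plus strand: agctcctccCCACCAGAGGtCagcagagag
IGF2R start site, chr6:160088582-160088611, plus strand: agagcttggCCAACAGAGGGtgcatgtgag
The peaks around them had means of 338, 292, 354, 442 and 104, and stood between percentiles 62.0 and 96.9. The IGF2R peak lay near a start inside the gene and covered none. The matches lay 155, -384, -153, 8 and 14 bases from the peak centres. The highest peaks of the other 3, at GRB10, BLCAP and KCNK9, with means of 166, 10.4 and 388, held such a match too. A match with at most 1 different letter was common: 76.1% of the members' peaks and 76.1% of all CTCF peaks held one, as did 43.1% of all peaks moved by 10 kb. Over the 92 peaks the median mean was 99.4 in the 28 with an exact core and 36.4 in the 64 without, and the whole table showed the same order, with 143 in all peaks that held the core.

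A pair of exact cores in the same orientation lay in a CTCF peak over an exon of MEG3 with a mean of 118. The window chr14:100851296-100851468 (hg38, plus strand) is printed because it holds both, with 133 bases from end to end.
MEG3 exon: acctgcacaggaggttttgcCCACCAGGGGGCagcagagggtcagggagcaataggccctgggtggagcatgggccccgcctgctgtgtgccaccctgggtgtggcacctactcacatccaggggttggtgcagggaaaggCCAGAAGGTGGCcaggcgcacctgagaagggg
A CTCF peak with a mean of 163 over an exon of MKRN3, which codes for a RING-finger protein, carried 2 exact cores on opposite strands, 555 bases from end to end.

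At start sites, 26 of the 37 genes had an H3K27ac peak and 22 had a CTCF peak. With the start of the gene model alone, in place of every annotated start, these were 23 and 16. Of the 30 protein-coding members, 21 carried H3K27ac, near the 67.5% of all protein-coding genes, and 19 carried CTCF (63.3%), beside 52.7%. Of the 7 lncRNAs, 5 carried H3K27ac (71.4%, Wilson interval 35.9 to 91.8%), beside 32.4% of all lncRNA genes, and 3 carried CTCF, beside 25.7%. Among these 5, the start-site H3K27ac peaks of HYMAI and GNAS-AS1 also lay at starts of PLAGL1 and GNAS. No H3K27ac peak covered a MEG8 start. Both marks were present at the start sites of 19 genes, H3K27ac without CTCF at 7 (HYMAI, SNRPN, NDN, KCNQ1OT1, SLC22A18, ZDBF2 and NAP1L5), CTCF without H3K27ac at 3 (DIO3, ATP10A and PHLDA2), and neither at 8. The shares of these classes over all genes were not computed. Both marks at a gene need not share a start: the BLCAP CTCF peak of 10.4 overlapped no H3K27ac peak. Low-mappability copies and the parental origin of the reads were not examined.

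**Figure D1:**
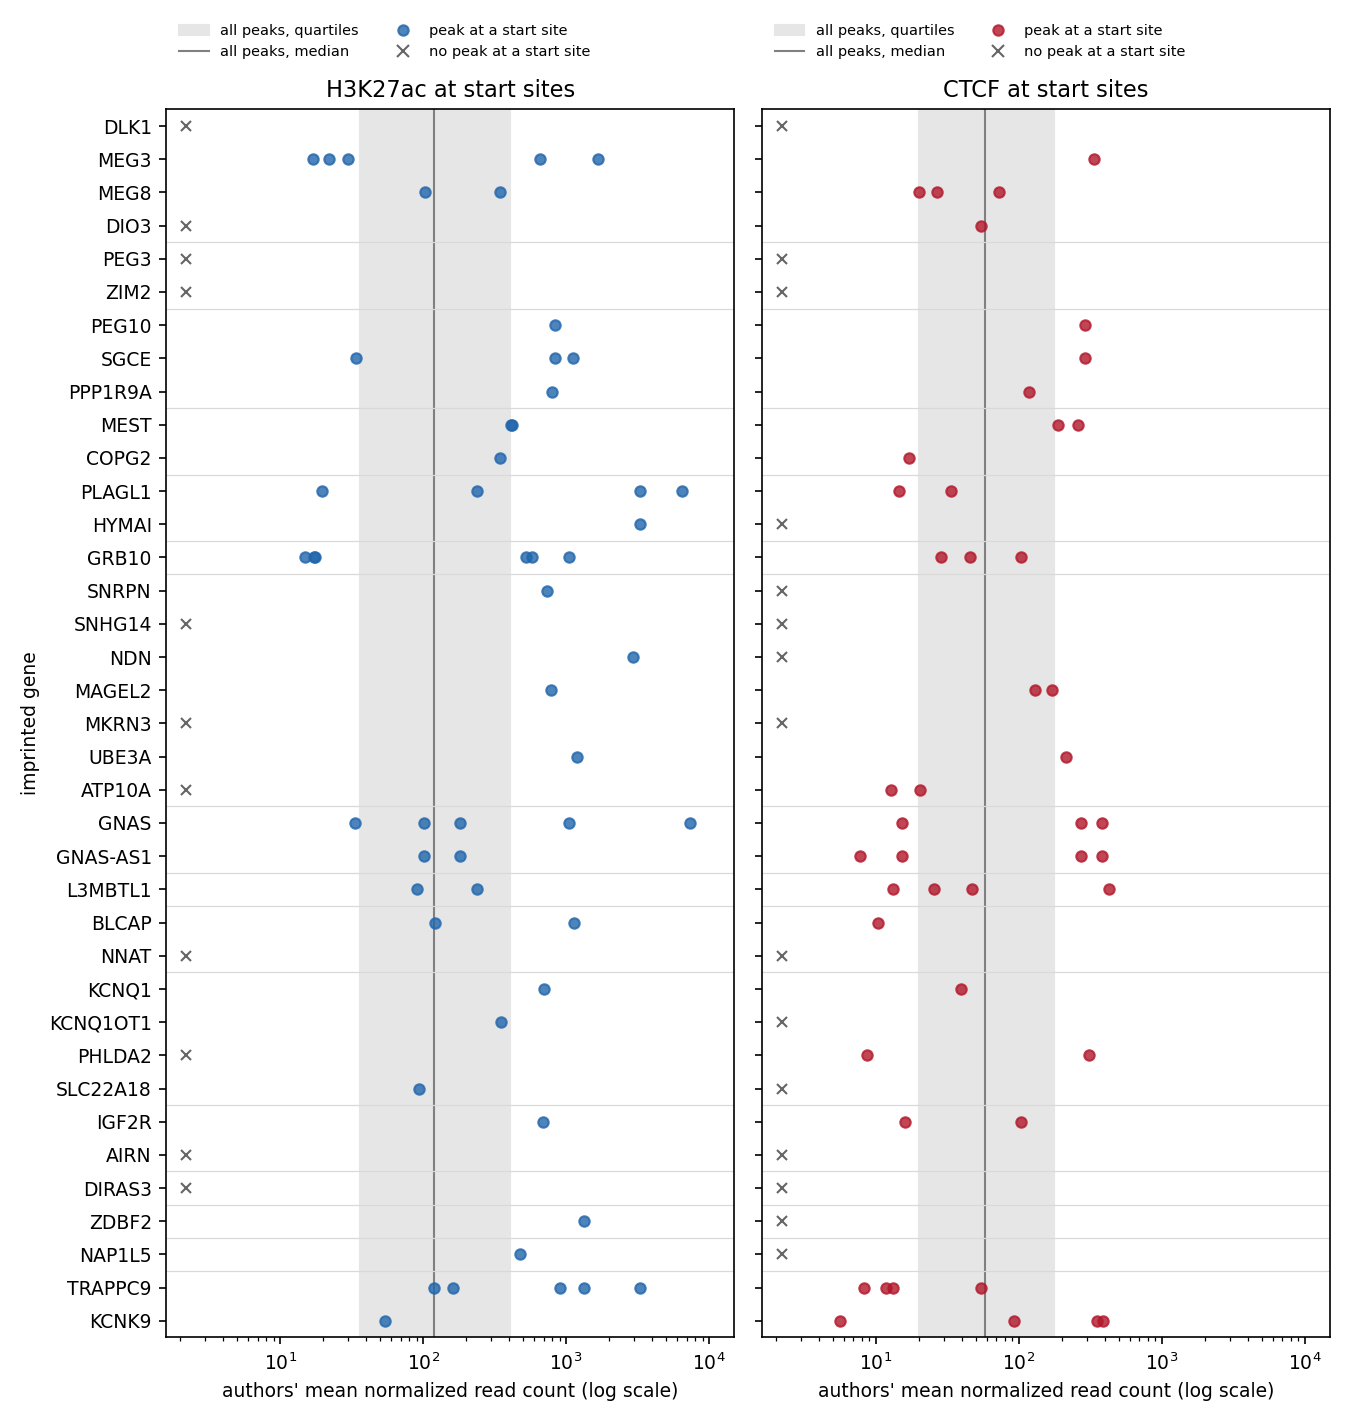
Authors' mean normalized read count (log axis) of every H3K27ac peak (left) and CTCF peak (right) at a start site of the 37 imprinted genes, 1 point per peak, with crosses for genes without one, the grey band for the quartiles and the line for the median of all peaks of that mark. H3K27ac points of GNAS and PLAGL1 lie farthest to the right, at 7396 and 6485, and 11 genes carry a cross in the H3K27ac panel.

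The highest H3K27ac at any start site was at GNAS, where a peak of 17.9 kb reached 7396 and percentile 99.9. PLAGL1, a zinc-finger transcription factor that restrains cell growth, had 6485 over its upstream start site (percentile 99.8) and 3270 over the downstream start site that it shares with the lncRNA HYMAI. TRAPPC9, a subunit of a vesicle-tethering complex, had 3285, and NDN, a MAGE-family growth suppressor, had 2920. MEG3, a maternally expressed lncRNA, had 1666 close to an upstream annotated start and 655 over the start sites downstream of it. These 5 genes were all above percentile 95 of the H3K27ac table. Start-site values between percentiles 90 and 95 were found at ZDBF2 (1323), UBE3A (1188), BLCAP (1126), SGCE (1112) and GRB10 (1046).

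Lower start-site H3K27ac was measured at PEG10 (838), PPP1R9A (802), MAGEL2 (783), SNRPN (731), KCNQ1 (697) and IGF2R (687). Still lower were NAP1L5 (479), MEST (421), KCNQ1OT1 (349), MEG8 (344), COPG2 (342), L3MBTL1 (238), GNAS-AS1 (180), SLC22A18 (93.9) and KCNK9 (53.8). Each of these is the authors' mean over libraries of both states, and neighbouring ranks cannot be told apart without a spread. The highest start-site peaks of MEG3, GRB10, MEG8 and KCNK9 covered no annotated start, and GRB10 reached 578 over one. Those of SGCE and KCNQ1 covered starts inside the gene. The GRB10, SGCE and KCNQ1 peaks overlapped enhancers of both lists. No peak of either mark lay within 2 kb of the outermost KCNQ1 start. The 49 start-site peaks had a median of 421, beside 341 for all H3K27ac peaks at start sites of coding or lncRNA genes. The 90 peaks in introns had a median of 53.0, beside 71.8 for all H3K27ac peaks away from such start sites.

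H3K27ac peaks of 10 kb or more numbered 7 of 158 (4.43%, Wilson interval 2.16 to 8.86%), beside 1.57% of all H3K27ac peaks. They were the GNAS peak, the peak of 12002 bases over PLAGL1 and HYMAI, the 10.9-kb peak over NDN, a 12.4-kb intron peak of GRB10 with a mean of 2115, and 3 intron peaks of TRAPPC9 with means of 2618, 1701 and 3474. A longer peak collects more reads. Per kb of width the GNAS peak held 412 reads, and the others of 10 kb or more held from 141 to 272. The median was 66.6 over all H3K27ac peaks and 124 over those at start sites of coding or lncRNA genes.

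No H3K27ac peak was assigned to 9 members, and no CTCF peak to 12. DLK1, a Notch-ligand-like protein, PEG3 and ZIM2, which code for zinc-finger proteins, the proteolipid gene NNAT and the lncRNA AIRN had neither mark. The nearest H3K27ac peak lay 214 kb from PEG3 and 179 kb from ZIM2, with a mean of 67.2. It lay 4.64 kb from DLK1 with a mean of 324, and 32.4 kb from AIRN, where it was the peak at the start site of IGF2R. For NNAT, which sits inside BLCAP, it began 12 bases past the gene end with a mean of 121, so its absence there depends on the gene boundary. DIO3, the enzyme that inactivates thyroid hormone, had a CTCF peak of 54.4 at its start and its nearest H3K27ac peak 78.8 kb away. MKRN3 and ATP10A also had CTCF peaks, with highest means of 163 and 20.6, and no H3K27ac peak.

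In the DLK1-DIO3 cluster, 11 H3K27ac and 7 CTCF peaks were assigned, none of them to DLK1. The MEG3 start-site CTCF peak, with 338 at percentile 92.5, overlapped the H3K27ac peak of 655. A second group of CTCF peaks lay around the annotated starts of MEG8, the lncRNA downstream of MEG3, with means from 20.3 to 186, and 2 of these 4 held an exact core. The peak at the far end of MEG8 had the second-highest H3K27ac mean of the cluster, 717.

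In the PLAGL1 cluster, 23 H3K27ac peaks were called, or 17.9 per 100 kb of PLAGL1 and its flanks, beside 11.1 in GRB10, 5.17 in TRAPPC9 and 4.90 in KCNQ1. The short genes MAGEL2, NDN and NAP1L5 had 24.0, 16.9 and 16.9, from 2, 1 and 1 peaks. The density over all genes was not computed. Most of the 23 PLAGL1 peaks were small, and the cluster median was 22.8 beside a maximum of 6485. CTCF was highest in an intron, at 227, in a peak outside the wide H3K27ac peak over the shared PLAGL1 and HYMAI start, and next highest at the far end of the gene, at 175. The upstream start site with the highest H3K27ac had a CTCF mean of 33.6.

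In GRB10, 23 H3K27ac and 11 CTCF peaks were called, and 8 of the 11 CTCF peaks overlapped H3K27ac. The highest GRB10 CTCF peak, over an exon, reached 166, and the start-site peaks had means of 105, 46.0 and 28.8. None of the GRB10 peaks passed percentile 90 for CTCF, and 2 did so for H3K27ac.

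In the KCNQ1 cluster the start site of KCNQ1OT1, the antisense lncRNA of the imprinting control region in KCNQ1, had an H3K27ac peak of 349 and no CTCF peak. The KCNQ1 intron CTCF peak of 767 overlapped an H3K27ac peak of 39.7. PHLDA2, a pleckstrin-homology protein that limits placental growth, had 310 for CTCF near its start and no H3K27ac peak, while its neighbour SLC22A18, a transporter, had an H3K27ac peak of 93.9 and no CTCF peak. The highest H3K27ac of the cluster, 1345, lay in the region where KCNQ1 and KCNQ1OT1 overlap.

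In the GNAS cluster CTCF and H3K27ac were high at different places. CTCF reached 384 at the upstream GNAS and GNAS-AS1 starts, 271 at the next start, and 191 and 442 in introns, whereas the H3K27ac peak at the upstream starts was 102. The H3K27ac peak of 180 covered a GNAS-AS1 start, where CTCF was 15.2, and no H3K27ac peak covered the GNAS start in the CTCF peak of 271. The H3K27ac maxima of 7396, over the downstream start, and 3513, at the far end of the antisense lncRNA GNAS-AS1, held no CTCF peak in the former case and a CTCF peak of 7.55 in the latter.

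**Figure D2:**
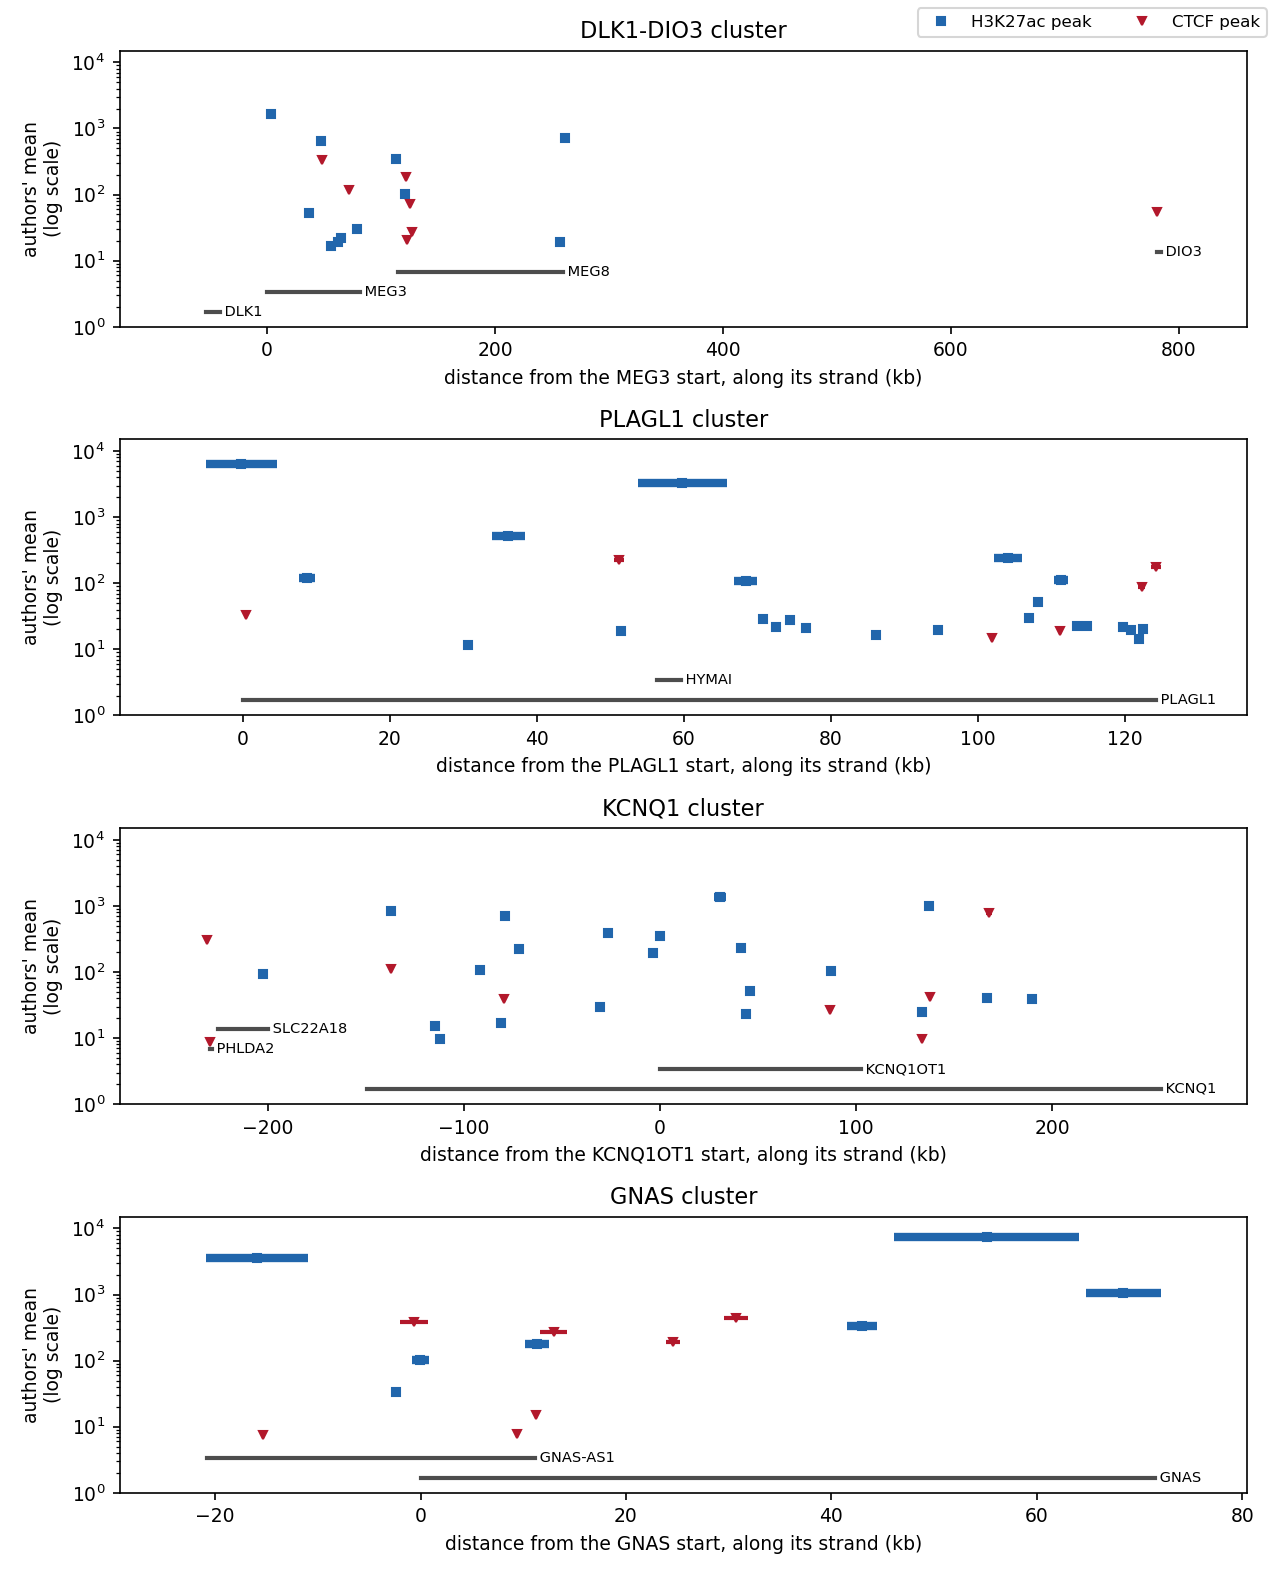
Authors' mean normalized read count (log axis) of each H3K27ac peak (blue squares, bar for the width) and CTCF peak (red triangles) in 4 clusters, against the distance in kb from the start of MEG3, PLAGL1, KCNQ1OT1 or GNAS along its strand, with grey bars for the genes. In the GNAS panel the CTCF points from 191 to 442 lie upstream of the wide H3K27ac peak of 7396.

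In the SNRPN cluster, which underlies Prader-Willi and Angelman syndromes, 7 H3K27ac and 9 CTCF peaks were assigned to 7 genes. MAGEL2, a MAGE-family regulator of protein recycling, had 4 CTCF peaks, with means of 354, 4.60, 130 and 171, all overlapping H3K27ac. NDN, its neighbour, had none. UBE3A, the ubiquitin ligase gene of Angelman syndrome, had 216 for CTCF and 1188 for H3K27ac at its start, and SNRPN, a splicing protein gene, had 731 for H3K27ac at its start and a CTCF peak of 4.77 in an intron. SNHG14, the snoRNA host transcript that runs from SNRPN towards UBE3A, had 1 H3K27ac peak, with 1201 in an intron.

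In the PEG10 cluster the retrotransposon-derived PEG10 and the sarcoglycan gene SGCE share a divergent start, which carried 292 for CTCF and 838 for H3K27ac. PPP1R9A, which codes for an actin-binding scaffold, had 118 and 802 at its start. MEST, a hydrolase-fold protein of mesoderm, had a pair of start sites with CTCF means of 262 and 189 and H3K27ac means of 415 and 421, and the neighbouring coatomer gene COPG2 had 17.0 and 342. In the KCNK9 cluster, 27 CTCF and 39 H3K27ac peaks were assigned, of which 20 and 38 belonged to TRAPPC9. The potassium channel gene KCNK9 had a CTCF peak of 388 near a start inside the gene and another of 355 near its outermost start. Neither covered a start. The lone H3K27ac peak of KCNK9 had a mean of 53.8. The highest CTCF peaks of TRAPPC9, with 313 and 279, lay in introns. An intron CTCF peak of TRAPPC9 with a mean of 38.7 held 7 exact cores.

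Among genes that stand alone in their cluster, ZDBF2, NAP1L5 and the small GTPase gene DIRAS3 had 1 H3K27ac peak each, with 1323, 479 and 103, and no CTCF peak. The DIRAS3 peak lay over an exon and not at the start. IGF2R, the receptor that clears IGF2, had 687 for H3K27ac at its start with a CTCF peak of 16.1 there, and a higher CTCF peak of 104 near an internal start.

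The members' CTCF peaks overlapped an H3K27ac peak in 48 of 92 cases (52.2%, Wilson interval 42.1 to 62.1%), beside 30.4% of all CTCF peaks. Of the 92, 42 lay at start sites of members, while 32.0% of all CTCF peaks lay at a start site of a coding or lncRNA gene. For H3K27ac these were 49 of 158 and 38.0%. At start sites the share of CTCF peaks that overlapped H3K27ac was 22 of 42 (52.4%), beside 56.8% of all CTCF peaks at start sites of coding or lncRNA genes, and elsewhere it was 26 of 50 (52.0%), beside 18.0%. The latter comparison sets peaks inside genes against peaks that also lie between genes. Its start sites differ too: the 50 lay away from those of members alone, the 18.0% away from those of any coding or lncRNA gene. A TRAPPC9 intron CTCF peak of 190 that overlapped H3K27ac, at a start site of the imprinted gene PEG13, is thus among the 50. How far these differences account for the contrast was not tested. In the other direction, 45 of 158 H3K27ac peaks overlapped CTCF (28.5%), near the 26.9% of all. The KCNK9, GRB10 and KCNQ1 clusters held 11, 8 and 6 of the 48 overlapping CTCF peaks, out of 27, 11 and 8 assigned to them. The intervals treat peaks as independent, which neighbouring peaks are not.

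**Figure D3:**
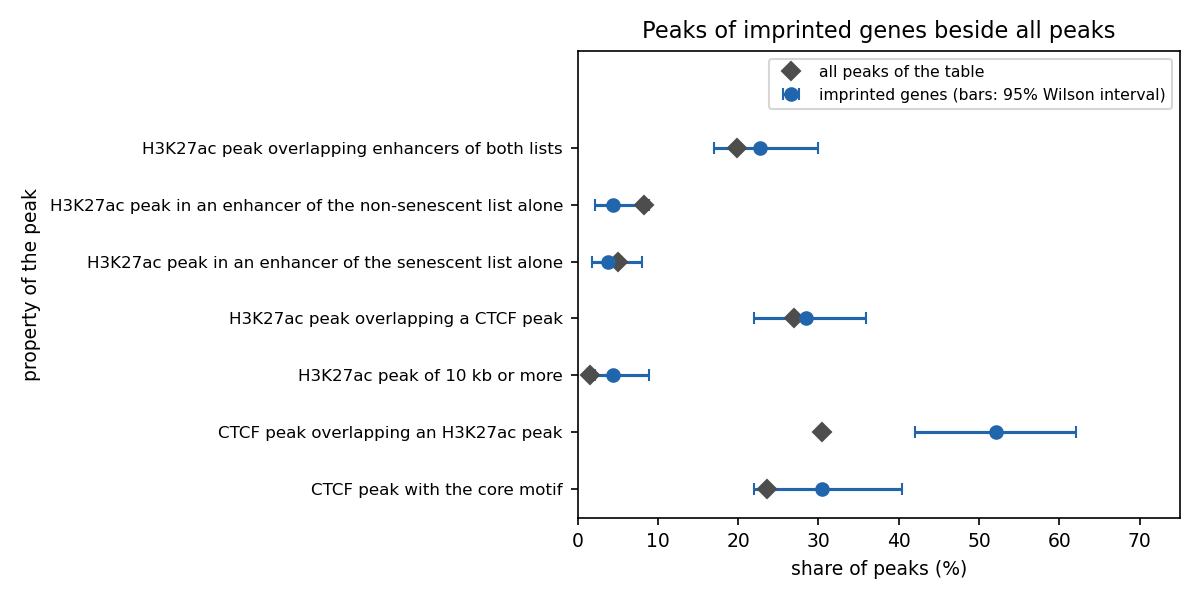
Share of peaks in % (x axis) with each property (y axis) among the peaks of the 37 imprinted genes (blue points, bars for the 95% Wilson interval) and among all peaks of the table (grey diamonds). The interval for CTCF peaks overlapping H3K27ac, 42.1 to 62.1%, lies above the value of all CTCF peaks, 30.4%. At start sites, not drawn apart, the shares were 52.4% and 56.8%, so the excess lay away from start sites.

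The authors' enhancer lists, made from regions with both H3K4me1 and H3K27ac outside promoters, gave the comparison of the states. Over the members' windows, 44 enhancers were listed in non-senescent and 42 in senescent cells, of 14886 and 13076. Of the 44, 8 overlapped none of the senescent list (18.2%), beside 29.4% of the whole non-senescent list, and of the 42, 7 overlapped none of the non-senescent list (16.7%), beside 20.5% of the whole senescent list. Most enhancers of these genes were thus present in both lists. Listed enhancers of members had median widths of 2846 and 3049 bases, beside 2280 and 2486 bases over the lists, so both were longer in the senescent list.

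Read by H3K27ac peak, 36 of 158 overlapped at least 1 enhancer of each list (22.8%), beside 19.9% of all H3K27ac peaks. A further 7 lay in an enhancer of the non-senescent list alone (4.43%), beside 8.33%, and 6 in an enhancer of the senescent list alone (3.80%), beside 5.09%. All 8 GRB10 peaks and all 8 KCNQ1 cluster peaks that overlapped an enhancer did so for both lists, in 1 GRB10 peak through a different enhancer of each. So did those of MEG3, with 1666, of SGCE, with 1112, of SNHG14, with 1201, and of GNAS-AS1, with 3513.

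The non-senescent list alone held 3 enhancers in introns of PPP1R9A, in H3K27ac peaks with means of 154, 180 and 123. It also held 3 in introns of TRAPPC9, in peaks of 110, 152 and 63.4, and 1 at GNAS, chr20:58901051-58903045, which takes up 1995 bases near the end of the 17.9-kb peak. The senescent list alone held both enhancers of MEG8, at chr14:100892215-100894578 and chr14:100900154-100901837, in peaks of 344 and 103. The latter overlapped the MEG8 CTCF peak of 186. It also held 4 enhancers of TRAPPC9, in peaks of 910, 144, 119 and 162. TRAPPC9 thus had enhancers of both kinds beside 13 peaks that overlapped enhancers of both lists. GRB10 had 1 enhancer of each list inside 1 H3K27ac peak with a mean of 243, chr7:50676663-50677696 in non-senescent and chr7:50678680-50680514 in senescent cells, and the latter held a CTCF peak of 46.9. Whether a region just missed the calling threshold in the other state cannot be read from the lists.

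**Figure D4:**
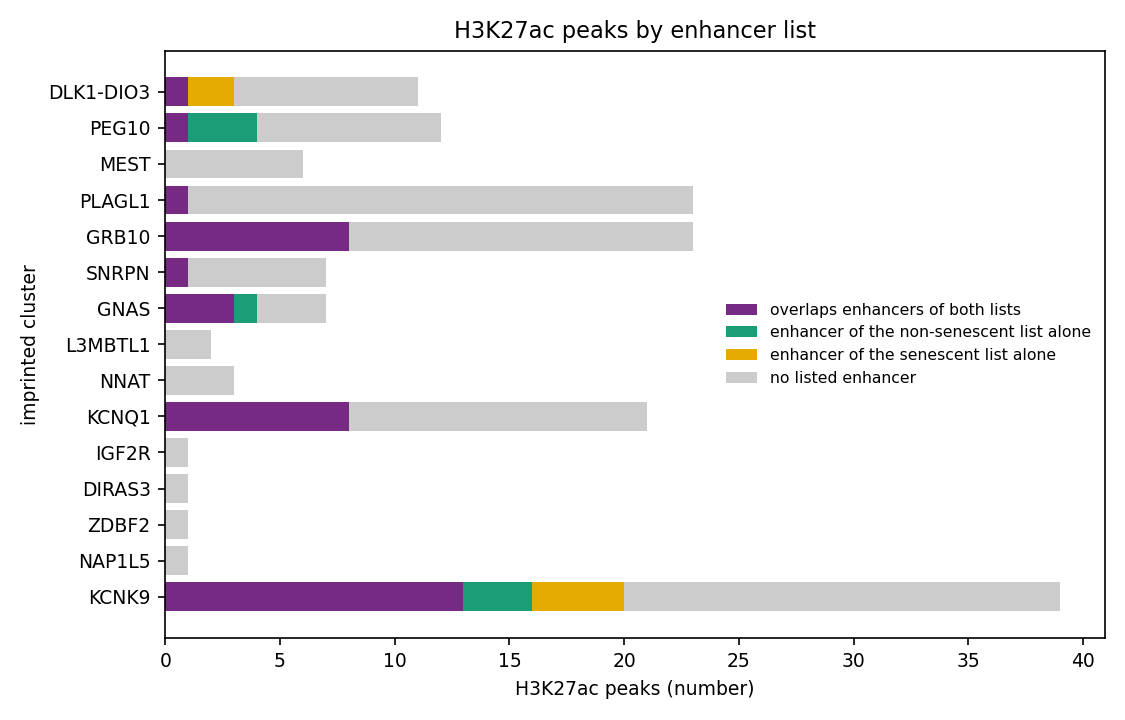
Number of H3K27ac peaks (x axis) in each imprinted cluster with at least 1 such peak (y axis), coloured by whether the peak overlaps enhancers of both lists, of the non-senescent list alone, of the senescent list alone, or none. The peaks in enhancers of the senescent list alone fall in the DLK1-DIO3 cluster (2) and the KCNK9 cluster (4).

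Rb is the pocket protein that holds cell-cycle genes silent in senescence, and the authors listed 2435 regions with more Rb in senescent than non-senescent cells. None overlapped a window of the members. This left 0 of 158 H3K27ac peaks, which allows a share of up to 1.899%, beside 0.691% of all, and 0 of 92 CTCF peaks, which allows up to 3.26%, beside 0.286%. At this number of peaks, the share of the whole table was within what a count of 0 allows. The nearest lay 13.7 kb from SGCE and 31.3 kb from L3MBTL1.

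The hexamer that ZFP57 reads, TGCCGC, was searched on both strands in RefSeq promoter windows of 300 bases (GRCh38.p14, 250 before to 50 after a start). The 51 windows of 23 members held it in 23 cases (45.1%), beside 16.7% of all 35116 windows. Some of the 51 overlap, and their median GC content was 64.3% beside 58.7% over all windows, with which a GC-rich hexamer can move, and its part was not tested. The YY1 core, AAGATGGC, was in 5.88% of the members' windows and 2.89% of all, and the CTCF core in 3.92% and 2.41%. From the windows with at least 2 hexamers under an H3K27ac peak, 4 that belong to 5 members are printed below, each on the strand of its gene, with the hexamer of either strand in capitals.
PLAGL1 and HYMAI, chr6:144008210-144008509, minus strand: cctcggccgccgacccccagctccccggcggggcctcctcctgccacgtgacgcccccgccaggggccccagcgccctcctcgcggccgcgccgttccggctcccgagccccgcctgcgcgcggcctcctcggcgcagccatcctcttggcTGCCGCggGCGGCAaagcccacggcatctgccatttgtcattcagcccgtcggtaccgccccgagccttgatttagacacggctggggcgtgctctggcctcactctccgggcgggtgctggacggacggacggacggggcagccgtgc
SNRPN, chr15:24954737-24955036, plus strand: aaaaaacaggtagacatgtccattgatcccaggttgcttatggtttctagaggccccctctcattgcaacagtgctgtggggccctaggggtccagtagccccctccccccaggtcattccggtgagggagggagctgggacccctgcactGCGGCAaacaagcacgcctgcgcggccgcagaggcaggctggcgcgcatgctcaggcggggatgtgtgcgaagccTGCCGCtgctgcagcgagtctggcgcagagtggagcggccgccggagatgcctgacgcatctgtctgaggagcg
MEST, chr7:130491835-130492134, plus strand: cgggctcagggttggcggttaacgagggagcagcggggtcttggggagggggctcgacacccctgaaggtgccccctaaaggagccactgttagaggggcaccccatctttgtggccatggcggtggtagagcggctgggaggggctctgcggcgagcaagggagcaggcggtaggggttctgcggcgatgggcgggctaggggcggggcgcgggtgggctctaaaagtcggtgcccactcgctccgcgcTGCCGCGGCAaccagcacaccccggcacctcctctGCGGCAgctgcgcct
NAP1L5, chr4:88697780-88698079, minus strand: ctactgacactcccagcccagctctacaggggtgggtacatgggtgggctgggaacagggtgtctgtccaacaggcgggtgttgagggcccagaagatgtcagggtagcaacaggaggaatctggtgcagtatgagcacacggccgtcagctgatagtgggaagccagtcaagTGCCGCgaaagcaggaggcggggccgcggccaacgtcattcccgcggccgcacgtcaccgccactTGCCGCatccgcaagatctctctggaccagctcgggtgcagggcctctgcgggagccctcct
The H3K27ac peaks over these 4 windows had means of 3270, 731, 421 and 479, and no CTCF peak overlapped any of them. A pair of hexamers on opposite strands overlapped in MEST and stood close together at PLAGL1 and HYMAI. A match of letters shows neither binding nor methylation, and the latter was not measured.

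Among 30 further imprinted genes, 17 had an H3K27ac peak and 16 a CTCF peak at a start site. Over all genes, H3K27ac was at a start site of 67.5% of protein-coding and 32.4% of lncRNA genes. For CTCF these shares were 52.7% and 25.7%, so no excess is read from the counts. USP29 and MIMT1, of the PEG3 cluster, were among the 13 without H3K27ac, as were CALCR, TFPI2 and PON1 near PEG10. ASB4 near PEG10, and CDKN1C, TSSC4, CD81 and NAP1L4 near KCNQ1 were among the 17 with H3K27ac, TSSC4 and CD81 through the same peak. The 17 also count RTL1 and MEG9, whose peaks were the MEG8 peaks of 103 and 717 given above. PEG13 is among them as well, through a TRAPPC9 intron peak of 443. The highest CTCF peak at a PEG13 start site, with 190, was likewise an intron peak of TRAPPC9.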

How the data were processed

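Chromatin of EndoC-βH3 cells was profiled by ChIP-seq in 40 libraries, inputs included. Per the paper's methods, the authors trimmed reads, aligned them to hg38 with Bowtie2, removed duplicates (stated for H3K27ac, H3K4me1 and Rb, not for CTCF), called peaks with HOMER (H3K27ac, H3K4me1) or MACS2 (CTCF, Rb), and compared read counts per peak with DESeq2. The methods also describe a motif filter on CTCF peaks. Whether the deposited table had passed it, and the versions, are not given in the sources used here. The deposited signal is the authors' mean normalized read count per peak over all libraries of a mark. The 5 columns of the authors' own comparison of states (log2 fold change, its error, statistic, p-value and adjusted p-value) were not used.

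Members and lists were chosen with earlier results of these data known. Peak starts were taken as 0-based, and positions are printed 1-based. Overlap was at least 1 base. 1 further marker gene and 1 further core sequence are not reported here. Named were the highest peak of each mark per cluster, start-site peaks above percentile 90, peaks in an enhancer of 1 list alone, and genes without a mark. The printed promoters, the match with 1 letter different, the widest peaks and the printed means of further peaks were chosen after values were seen. Since no table holds values per library, no test was run, and depth is given as summed peak means. Wilson intervals (95%) and the limit for a count of 0 (3 counts) cover counting error alone. Overlap and motif code was tested on simulated data. Tools were Python 3.11.15, pandas 2.3.3, numpy 2.4.6, scipy 1.17.1, pyfaidx 0.9.0.4 and samtools 1.23.1. The main counts, shares and medians, though not every value, were recomputed with other windows, overlaps, mean minima, motif letters or scaling by width.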

Additional observations from a re-analysis of the deposited data

How the results depend on the processing

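No paired analysis was possible because the tables hold no values per library, and for the same reason no replicate could be left out. Of 21 alternatives for 11 results, 12 stayed within 1.5 times the count or within the binomial interval of the share. The medians have no such limit and were counted as changed. Start-site windows of 2 kb alone gave 42 CTCF and 49 H3K27ac peaks in place of 92 and 158, and a minimum authors' mean of 50 gave 43 and 99, since fewer peaks qualify by construction. Scaling by width changed the median authors' mean of 46.5 for CTCF to 61.0 per kb and that of 103 for H3K27ac to 58.3 per kb. The 30.4% of members' CTCF peaks with the core became 17.4% with 1 more fixed letter, 15.2% in the central 200 bases, and 76.1% with at most 1 letter different, the last chosen after seeing the data. Asking that at least 50% of a peak lie inside an enhancer gave 14 in place of 13 H3K27ac peaks in enhancers of 1 list alone: the GNAS peak dropped out, and 1 peak each of KCNQ1 and TRAPPC9 came in. Asking that no enhancer of the other list lie within 1 kb, chosen after seeing the data, left 12 of 15 enhancers. The GRB10 pair and 1 of TRAPPC9 dropped out. Peaks of low mean, near the lowest H3K27ac value of 9.84 or CTCF value of 4.60 among the members, limit how firmly a presence can be read, and absence is only of a called peak.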
